A study of Mus musculus with 12 samples.

Results

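Chemokines are small secreted proteins that draw leukocytes into tissue, and they were examined here together with their receptors in injured mouse muscle. The members were the protein-coding rows of the gene table whose symbols name a CC, CXC, CX3C or XC ligand or receptor or an atypical chemokine receptor. They were 64 of the 54532 rows, under 59 symbols: 42 rows of ligands and 22 of receptors. Of these, 40 (25 ligands and 15 receptors) had enough counts to be tested, among 16393 tested genes in all. RNA was sequenced from whole tibialis anterior, the muscle along the shin, on day 5 after an injection of glycerol, an injury after which fat cells form between the fibres. The 6 control samples were labelled Wildtype and the 6 knockout samples FAP no ppary, in which FAPs (fibro-adipogenic progenitors, mesenchymal cells that can turn into fat cells) carry a conditional deletion of Pparg. All 12 were labelled with the strain 129svlmJ and had received the same injury. The labels name neither the promoter that drives the deletion nor the age or sex of the mice. Whether each sample is a mouse of its own is not said, and the p-values then reflect the spread of these samples alone, which may be technical. In whole muscle, fewer cells of a type and less RNA per cell cannot be told apart.

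Chemokines are sorted by the spacing of their conserved cysteines into CC, CXC, CX3C and XC families, and they signal through receptors coupled to inhibitory G proteins. Several ligands share a receptor and several receptors share a ligand, while the atypical receptors bind ligands without this signalling and remove or transport them. After muscle injury, neutrophils and then monocytes enter the tissue, the latter largely through Ccl2 and its receptor Ccr2. Resident macrophages, FAPs, endothelium and the regenerating fibres are all known sources of chemokines.

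Many inflammatory chemokine genes are switched on through short DNA motifs just upstream of their start. The 250 bases before the start were searched on both strands in the 30 tested members that the RefSeq promoter table (GRCm38.p6) holds. The 4 windows below are shown because they hold the motif of the inflammatory factor NF-kB (the first 3) or a repeat of the kind that PPAR and RXR dimers bind. Capitals mark the motif matches, some of which overlap.
Cxcl1, chr5:90890995-90891244, plus strand: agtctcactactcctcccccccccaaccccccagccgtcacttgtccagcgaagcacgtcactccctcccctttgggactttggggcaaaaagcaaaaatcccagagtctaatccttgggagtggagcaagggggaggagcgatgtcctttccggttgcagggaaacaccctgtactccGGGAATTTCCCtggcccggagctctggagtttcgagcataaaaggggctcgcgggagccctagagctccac
Cxcl2, chr5:90903649-90903898, plus strand: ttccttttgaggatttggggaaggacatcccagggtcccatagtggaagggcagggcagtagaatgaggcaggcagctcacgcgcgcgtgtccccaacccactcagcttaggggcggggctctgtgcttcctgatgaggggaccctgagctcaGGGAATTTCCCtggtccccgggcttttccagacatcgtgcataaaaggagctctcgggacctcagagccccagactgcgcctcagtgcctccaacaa
Cxcl10, chr5:92348890-92349139, minus strand: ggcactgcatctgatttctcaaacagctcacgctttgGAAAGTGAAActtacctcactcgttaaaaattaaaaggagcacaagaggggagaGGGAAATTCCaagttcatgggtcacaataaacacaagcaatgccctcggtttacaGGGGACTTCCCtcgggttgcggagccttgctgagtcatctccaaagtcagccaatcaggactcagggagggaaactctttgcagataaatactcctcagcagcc
Ccl6, chr11:83593088-83593337, minus strand: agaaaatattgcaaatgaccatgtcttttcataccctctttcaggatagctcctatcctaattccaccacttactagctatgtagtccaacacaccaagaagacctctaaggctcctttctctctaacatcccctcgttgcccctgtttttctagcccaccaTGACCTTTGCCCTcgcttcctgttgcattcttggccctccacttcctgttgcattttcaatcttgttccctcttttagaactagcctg
The NF-kB motif, taken by its name, was found in 6 of the 30 members (Ccl9, Ccr1, Ccr3, Cxcl1, Cxcl10 and Cxcl2) and in 7.25% of all 32851 promoter windows of this length. The interferon-stimulated element GAAANNGAAA was found in Cxcl10 and Cxcl14 and in 2.98% of all windows, and the STAT motif TTCNNNGAA in Cxcl14 and in 7.02%. The STAT6 form TTCNNNNGAA was found in 0 of the 30 members and in 5.85% of all windows. The direct repeat AGGNCANAGGNCA was found in Ccl6 alone among the 30 members and in 0.338% of all windows. In Cxcl1 and Cxcl2 the same stretch GGGAATTTCCC holds the overlapping NF-kB matches, ending 61 and 87 bases before the start. A match is a description of these letters only.

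Library totals ranged from 15716056 to 29790720 counts, and the members took between 0.113% and 0.203% of them. Pparg stood between 45.0 and 67.4 CPM (counts scaled to a common library size) in controls and between 15.6 and 43.1 CPM over the knockouts, so no library went against its label. The tissue label was checked by 8 muscle genes such as Acta1 and Ttn, whose summed level was 19033 to 37141 CPM over the controls and 16962 to 45070 CPM over the knockouts. Of 9 adipocyte markers, 9 had negative log2 fold changes. Of these, 3 passed the test as lower (edgeR adjusted p under 0.05), against 0.75% of all tested genes. At an unadjusted edgeR p under 0.05 there were 9, against 9.47% of all tested genes. The sum of these markers was 3569 to 5517 CPM in controls against 683 to 2478 CPM over the knockouts. Of 9 FAP markers, 8 had negative log2 fold changes, 2 passed the test as lower and 5 had an unadjusted edgeR p under 0.05. Their sums were 2090 to 2810 CPM over the controls and 1367 to 2146 CPM over the knockouts. The sum of 10 monocyte and macrophage markers was 6268 to 7634 CPM over the controls and 4828 to 7834 CPM over the knockouts, and 0 of them passed the test. That sum was mostly Lyz2, with medians of 4407 CPM over the controls and 3681 CPM over the knockouts. Of the 10 markers, 6 had positive and 4 negative log2 fold changes.

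Injured muscle held a few ligands and receptors at high level, compared between genes by the deposited FPKM (reads scaled by gene length and library size). Ccl8, a monocyte-attracting CC chemokine that signals through Ccr8 in the mouse, had the highest FPKM of the members. Its lowest, median and highest values were 151, 297 and 588 FPKM over the 12 libraries. It made up 42.3% of the summed FPKM of the ligands in the rule and lay above the next of them, Ccl6, in 12 of 12 libraries. Ccl6, a ligand of Ccr1 known from rodents, had a mean of 80.3 FPKM and lay above Ccl7 in 11 of 12. The next 6, Ccl7, Ccl9, Cxcl12, Ccl2, Cxcl14 and Ccl12, had means from 49.9 down to 28.7 FPKM, and neighbours in this order changed places in 5 or 6 of the 12 libraries. Together these 8 ligands made up 86.7% of that sum. The order and the shares rest on the deposited gene lengths, 511 bases for Ccl8 and 8176 bases for Cxcl12. In CPM, which is not scaled by length, Cxcl12 stood above Ccl8, with means of 363 and 160 CPM over the 12 libraries. The platelet CXC chemokine Pf4, whose symbol lies outside the rule, had a mean of 159 FPKM and is not in the order or the shares. Among the receptors Cxcr4, the receptor of Cxcl12, was highest at a mean of 26.0 FPKM (19.9 to 35.6) and lay above Ccr2 in 11 of 12 libraries. Ccr2, which marks inflammatory monocytes, stood at a mean of 15.5 FPKM, the fractalkine receptor Cx3cr1 at 9.01 and Ccr1 at 7.03. Cxcr4, Ccr2 and Cx3cr1 made up 64.9% of the receptor FPKM. The Ccl8 receptor Ccr8 had at most 1 count in a control library and 4 in a knockout library.

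**Figure D1:**
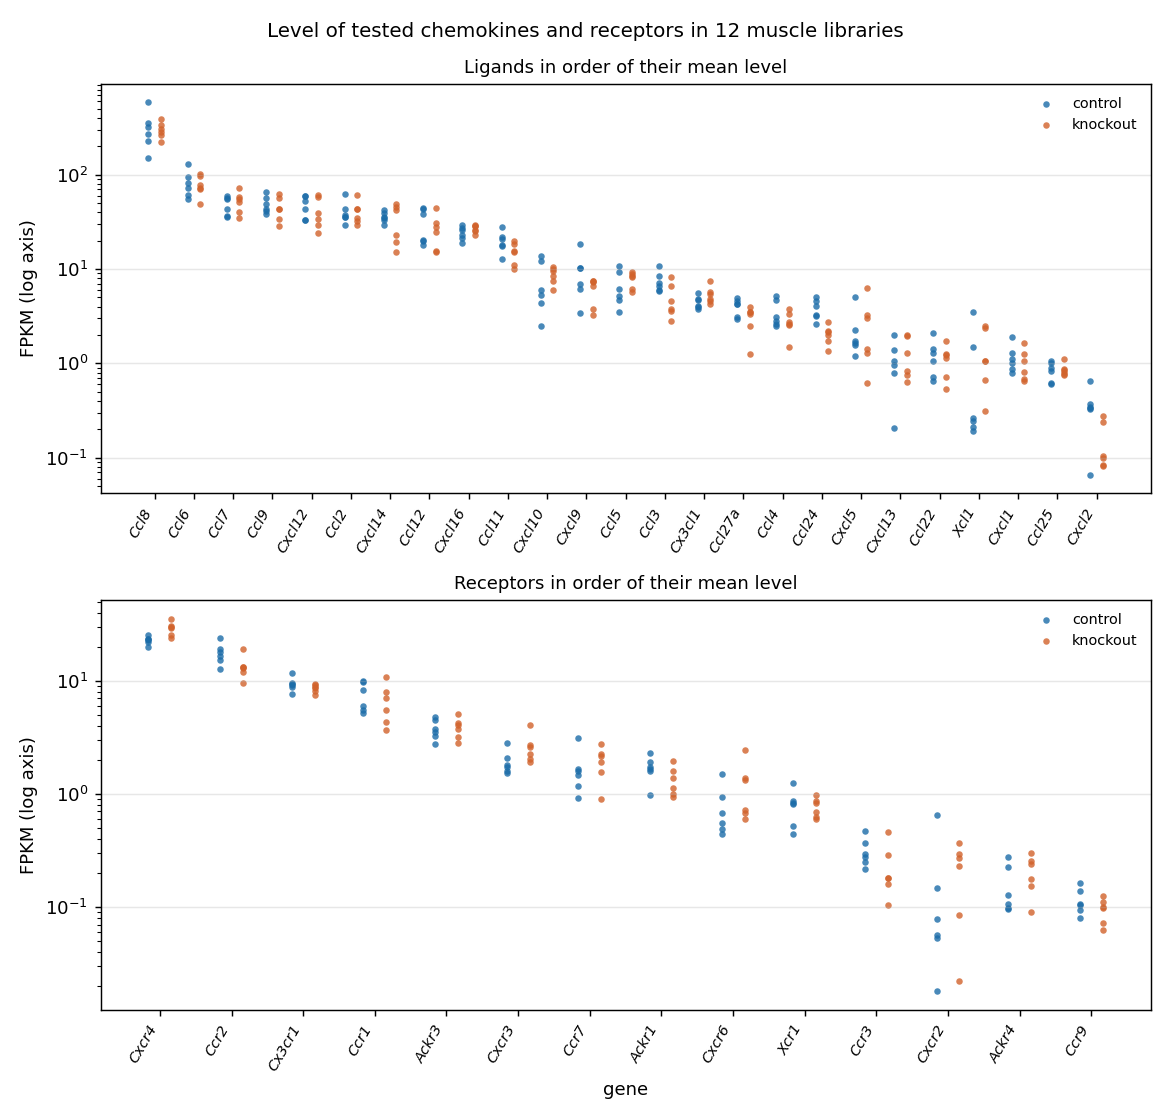
FPKM of 25 tested ligands and 14 tested receptors on a log axis, in order of their mean, with 1 point for each of 6 control and 6 knockout libraries. Ccl8 lies above every other ligand at 151 to 588 FPKM, and most other neighbours in the order overlap.

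The comparison asks whether chemokine and receptor transcripts of the muscle depend on Pparg in FAPs. None of the 40 tested members passed the threshold (adjusted p of 0.05 over all tested genes, edgeR), where 0.799% of all tested genes did. By direction, 0 members were called lower, against 0.75% of all genes, and 0 higher, against 0.0488%. At an unadjusted p under 0.05 there were 5 members (12.5%), against 9.47% of all tested genes. Of these, 4 were lower (5.68% of all genes) and 1 was higher (3.79% of all genes). In none of the 40 did the control and knockout libraries lie fully apart, against 1.43% of all tested genes (1.27% lower and 0.159% higher). The median log2 fold change of knockout over control was -0.11 for the members and 0.00 for all tested genes, and 24 of the 40 had negative values, 60% against 50.5% of all genes. DESeq2 called Ccl24 and Cxcr4. Standard errors of the log2 fold change ran from 0.09 to 0.71 with a median of 0.25. A difference had to be several times its SE to pass. Cxcr4, with a log2 fold change of 0.33 (SE 0.09), did not, so moderate differences may have been missed.

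**Figure D2:**
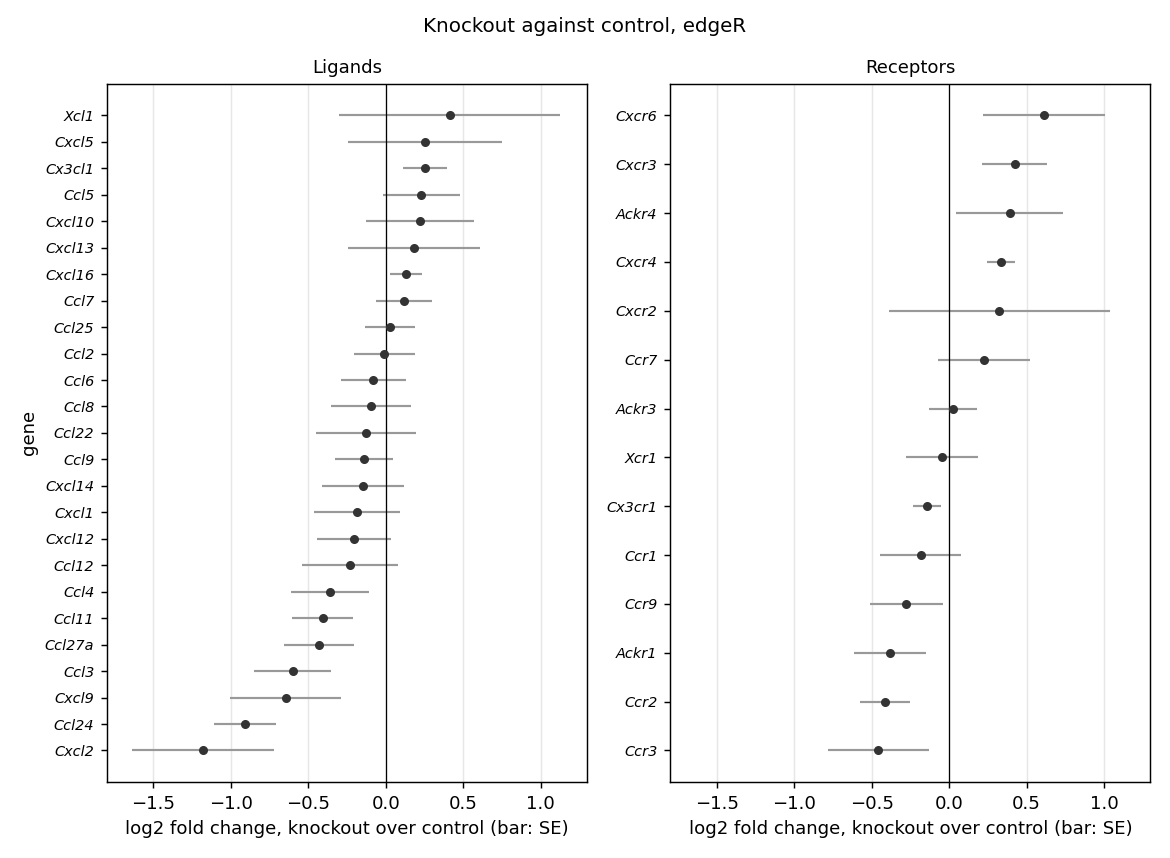
Log2 fold change of knockout over control with its SE for 25 tested ligands and 14 tested receptors (edgeR, 6 libraries a group). Ccl24 and Cxcl2 have the most negative values, -0.91 and -1.18, and none of the genes shown passed the adjusted threshold.

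Among the CC ligands, 11 of 14 tested genes had negative log2 fold changes, against 50.5% of all tested genes. Of these 11, Ccl2, Ccl6, Ccl8 and Ccl22 changed sign under at least 1 alternative setting. Ccl24 had the smallest p of all members. Ccl24 (ENSMUSG00000004814, chromosome 5, 135569937 to 135573049, minus strand, GRCm38) is eotaxin-2, which draws eosinophils through Ccr3 and is made by alternatively activated macrophages. Its lowest, median and highest levels were 3.47, 4.82 and 6.59 CPM over the controls and 1.75, 2.70 and 3.61 CPM over the knockouts. Knockout replicates 2 to 6 lay below all 6 controls, and knockout replicate 1, at 3.61 CPM, lay just above control replicate 1. The mean was 4.97 ± 1.19 CPM over the controls and 2.65 ± 0.63 CPM over the knockouts (SD, n = 6 each), 53.2% of the control level, with a log2 fold change of -0.91 (SE 0.20) and an adjusted p of 0.0550 (edgeR quasi-likelihood). It missed the threshold, but passed it with DESeq2 (adjusted p 0.00186), limma-voom with library quality weights (0.0400) and edgeR without a count filter (0.0478). It passed as well with limma on log2 FPKM with pseudocounts of 1 and 0.1 (0.0390 and 0.0450). With RLE scaling, with at least 50 counts in 6 libraries and with the replicate number as a block it did not pass. It also passed without knockout replicate 1 (edgeR adjusted p 0.0301), and with each other library left out it did not (up to 0.139). The other eotaxin, Ccl11, had 14.1, 21.2 and 30.9 CPM over the controls and 10.8, 16.8 and 21.4 CPM over the knockouts (lowest, median, highest), and only knockout replicates 5 and 6 lay below all controls. Its log2 fold change was -0.41 (SE 0.20, edgeR adjusted p 0.555). The markers of eosinophils and mast cells were low, with summed levels of 9.72 to 14.6 CPM over the controls and 5.29 to 15.6 CPM over the knockouts. This sum includes Ccr3 and came mainly from Kit and Cpa3, with control medians of 5.54 and 2.20 CPM. The medians of Epx and Il5ra were 0 CPM in both groups. Those of Siglecf were 0.311 and 0.249 CPM in controls and knockouts, so eosinophils cannot be judged from the sum. The part of these cells in the Ccl24 and Ccl11 values was not tested.

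Ccl3 and Ccl4, macrophage inflammatory proteins that act on Ccr1 among other receptors, were further ligands with negative fold changes. Ccl3 stood at 4.53, 5.30 and 8.34 CPM over the controls and 2.18, 3.19 and 6.40 CPM over the knockouts (lowest, median, highest). Knockout replicates 1, 3, 4 and 5 lay below all controls, and replicates 2 and 6 lay within the control range. The log2 fold change of Ccl3 was -0.60 (SE 0.25, unadjusted p = 0.0316, edgeR adjusted p 0.439), and that of Ccl4, with means of 2.34 ± 0.78 and 1.83 ± 0.52 CPM (SD, n = 6 each), was -0.36 (SE 0.25, edgeR adjusted p 0.786). Ccl5, made largely by T and NK cells, stood at 6.41 ± 2.80 CPM over the controls and 7.54 ± 1.44 CPM over the knockouts, and all 6 knockouts lay within the control range.

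Among chemokines that draw monocytes, no difference was detected for Ccl2, Ccl7, Ccl8 or Ccl12. Ccl2, the main ligand of Ccr2, stood at 34.0, 42.3 and 71.7 CPM over the controls and 34.0, 44.4 and 69.1 CPM over the knockouts (lowest, median, highest), and these ranges nearly coincided. Its log2 fold change was -0.01 (SE 0.20, edgeR adjusted p 0.999). Ccl7, another Ccr2 ligand, had means of 38.7 ± 8.54 and 42.0 ± 10.8 CPM, and Ccl12, the third Ccr2 ligand of the mouse, 16.8 ± 6.93 and 14.3 ± 5.94 CPM (SD, n = 6 each). Ccl8 ranged from 78.0 to 304 CPM in controls, where control replicate 2 was highest and control replicate 5 lowest, and all 6 knockouts, at 116 to 199 CPM, lay within that range. Its log2 fold change was -0.09 (SE 0.26), and it turned to 0.17 without control replicate 2. Ccl6 and Ccl9, both ligands of Ccr1, had log2 fold changes of -0.08 (SE 0.21) and -0.14 (SE 0.19). Ccl6, whose promoter window holds the direct repeat shown above, stood at 150 ± 48.4 CPM over the controls and 141 ± 34.0 CPM over the knockouts (SD, n = 6 each). The signs of Ccl2, Ccl6, Ccl7 and Ccl8 each turned under at least 1 alternative setting, so no direction is given for them.

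Of the ligands of homing within tissue and lymphoid organs, Ccl27a, Ccl22 and Ccl25 were measured at low level. Ccl27a, which acts on Ccr10 and is best known from skin, stood at 9.65 ± 1.91 CPM over the controls and 7.17 ± 2.34 CPM over the knockouts (log2 fold change -0.43, SE 0.23, edgeR adjusted p 0.614), with knockout replicates 5 and 6 below all controls. Its count is uncertain, because 69.2% of its 50-base words occur in another gene and it overlaps Il11ra1 on the opposite strand. Ccl22, a dendritic cell ligand of Ccr4, and Ccl25, the thymic and intestinal ligand of Ccr9, had log2 fold changes of -0.13 (SE 0.32) and 0.03 (SE 0.16).

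Of the 9 tested CXC ligands, 5 had negative and 4 positive log2 fold changes. Cxcl2, which draws neutrophils through Cxcr2, stood at 0.138, 0.707 and 1.35 CPM over the controls and 0.168, 0.212 and 0.570 CPM over the knockouts (lowest, median, highest). The groups overlapped through control replicate 2 alone, which was lowest of all 12 libraries, while the other 5 controls lay above every knockout. The log2 fold change was -1.18 (SE 0.46, unadjusted p = 0.0220, edgeR adjusted p 0.378), on counts of 3 to 31 in a library. Cxcl1, its neighbour with the same NF-kB stretch shown above, had means of 2.20 ± 0.77 and 1.92 ± 0.73 CPM (SD, n = 6 each) and a log2 fold change of -0.19 (SE 0.28). Cxcl5, a further ligand of Cxcr2, ranged from 2.28 to 9.58 CPM over the controls and from 1.17 to 11.8 CPM over the knockouts, with a log2 fold change of 0.26 (SE 0.50). The difference between these 3 ligands in their response was not tested.

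The interferon-induced ligands of Cxcr3 varied widely between controls. Cxcl9 stood at 10.3, 26.1 and 57.0 CPM over the controls and 9.82, 21.03 and 22.8 CPM over the knockouts (lowest, median, highest), with 5 of 6 knockouts inside the control range. Its log2 fold change was -0.65 (SE 0.36, edgeR adjusted p 0.645), and it was -0.32 without control replicate 3, the highest library. Cxcl10, whose window above holds the interferon-stimulated element and NF-kB motifs, stood at 5.63, 12.8 and 31.5 CPM over the controls and 13.6, 20.3 and 24.02 CPM over the knockouts. All 6 knockouts lay within the control range, and the log2 fold change was 0.22 (SE 0.35, edgeR adjusted p 0.939). Cxcl10 overlaps Art3 on the opposite strand, and whether strand was used in counting is not known here. The third gene of this group, Cxcl11, is a polymorphic pseudogene in the table and no member, with 2 to 32 counts in a library.

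Stromal CXC ligands showed spread rather than separation. Cxcl12, made by mesenchymal cells and endothelium, ranged from 274 to 492 CPM over the controls and from 198 to 507 CPM over the knockouts, with knockout replicates 3 and 4 below and knockout replicate 2 above all controls (log2 fold change -0.20, SE 0.24). Cxcl14, a chemokine of epithelia and fibroblasts, stood at 66.1 ± 8.32 CPM over the controls and 59.8 ± 27.3 CPM over the knockouts (SD, n = 6 each). Its knockouts lay on both sides of the controls: replicates 1, 5 and 6 stood at 42.7, 36.2 and 27.8 CPM, below the lowest control at 54.4 CPM, and replicates 3 and 4 stood at 90.3 and 84.0 CPM, above the highest at 78.1 CPM. The part of the FAP marker sums given above in these values was not tested. Cxcl16, the membrane-bound ligand of Cxcr6, had means of 74.4 ± 12.02 and 81.5 ± 7.27 CPM, and Cxcl13, which draws B cells through Cxcr5, 1.25 ± 0.70 and 1.44 ± 0.71 CPM. Cxcl16 overlaps Zmynd15 on the opposite strand and shares 20.0% of its words with it. The CX3C ligand Cx3cl1, a membrane-bound chemokine, stood at 17.9 ± 2.84 and 21.3 ± 4.67 CPM (log2 fold change 0.25, SE 0.14, edgeR adjusted p 0.643), and Xcl1, a product of NK and T cells, at 0.52 ± 0.71 and 0.70 ± 0.47 CPM.

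**Figure D3:**
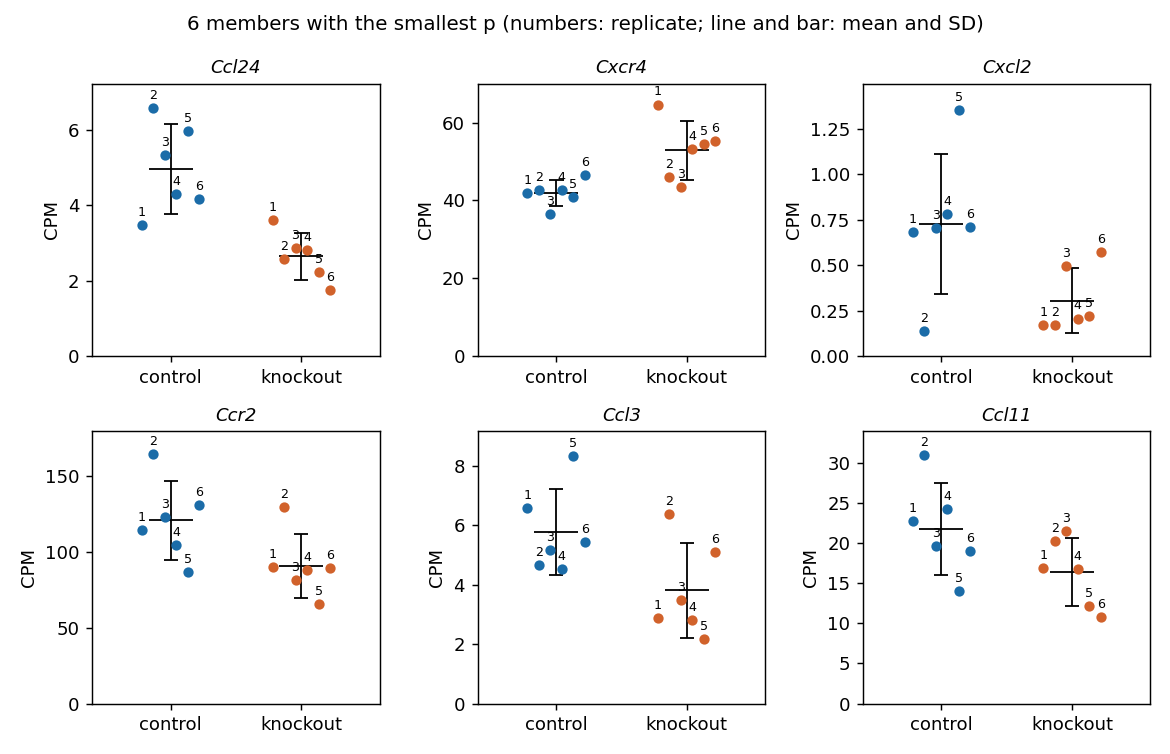
CPM of the 6 members with the smallest p in 6 control and 6 knockout libraries, with replicate numbers, means and SD. Each gene has some overlap between the groups, which for Ccl24 is between control replicate 1 at 3.47 CPM and knockout replicate 1 at 3.61 CPM.

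Among the receptors, all 4 tested CXC receptors had positive log2 fold changes, while 5 of 6 CC receptors had negative ones. Of all tested genes, 50.5% had negative values. In each of these 2 classes only 1 gene had an unadjusted edgeR p under 0.05. Cxcr4 (chromosome 1, 128588199 to 128592293, minus strand, GRCm38), found on most leukocytes and on progenitor cells, stood at 36.5, 42.4 and 46.5 CPM over the controls and 43.5, 53.9 and 64.6 CPM over the knockouts (lowest, median, highest). Knockout replicates 1, 4, 5 and 6 lay above all controls, and replicates 2 and 3 lay within the upper part of the control range. The means were 41.9 ± 3.27 and 52.8 ± 7.50 CPM (SD, n = 6 each), with a log2 fold change of 0.33 (SE 0.09), an unadjusted p of 0.00270 and an adjusted p of 0.131 (edgeR quasi-likelihood). DESeq2 gave an adjusted p of 0.0371. Its ligand Cxcl12 is given above, and the other Cxcl12 receptor, Ackr3, had means of 12.8 ± 2.52 and 13.01 ± 2.66 CPM with a log2 fold change of 0.03 (SE 0.16).

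Cxcr3 and Cxcr6, receptors of activated T and NK cells, had positive fold changes with much overlap. Cxcr3 stood at 2.66, 3.12 and 4.98 CPM over the controls and 3.38, 4.27 and 7.13 CPM over the knockouts (lowest, median, highest), and only knockout replicate 2 lay above all controls (log2 fold change 0.42, SE 0.21, edgeR adjusted p 0.574). Cxcr6 stood at 0.869, 1.204 and 2.98 CPM over the controls and 1.16, 2.01 and 4.71 CPM over the knockouts, again with knockout replicate 2 alone above the controls (log2 fold change 0.61, SE 0.39, edgeR adjusted p 0.741). Of 10 T and NK cell markers, 9 had positive log2 fold changes and 0 passed the test. At an unadjusted edgeR p under 0.05 there were 5, against 9.47% of all tested genes. Ncr1, Klrb1c, Il2rb, Gzma and Nkg7 stood at 187% to 238% of the control mean. Cd3e, Cd3g, Cd4, Cd8a and Trac stood at 92.5% to 138% of it. The summed level of the 10 markers was 15.3 to 34.3 CPM over the controls and 26.2 to 52.5 CPM over the knockouts. That sum was highest in knockout replicate 2 too, and the part of these markers in the Cxcr3 and Cxcr6 values was not tested. Cxcr6 lies within the span of Fyco1 on the opposite strand. Cxcr2, the neutrophil receptor, ranged from 0.0559 to 2.03 CPM over the controls and from 0.0686 to 1.15 CPM over the knockouts. Control replicate 2 was its highest library, and the neutrophil marker sum there, 55.7 CPM, was the highest of the controls (29.4 to 55.7 CPM, against 31.0 to 60.7 CPM over the knockouts). That sum was mostly Csf3r, with medians of 32.7 CPM over the controls and 31.5 CPM over the knockouts. The medians of S100a8 were 1.54 and 1.86 CPM, and those of Ly6g were 0 and 0. The monocyte and macrophage sum was also highest of the controls in control replicate 2, at 7634 CPM. The part of any cell type in the Cxcr2 values was not tested.

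Ccr2 had the smallest p of the CC receptors. It stood at 86.8, 119 and 164 CPM over the controls and 65.4, 88.7 and 130 CPM over the knockouts (lowest, median, highest), with knockout replicates 3 and 5 below all controls and knockout replicate 2 well inside their range. The means were 121 ± 26.3 and 90.6 ± 21.2 CPM (SD, n = 6 each), with a log2 fold change of -0.41 (SE 0.16, unadjusted p = 0.0244, edgeR adjusted p 0.391). Ccr1, on monocytes and neutrophils, had means of 21.4 ± 6.24 and 18.8 ± 7.54 CPM (log2 fold change -0.18, SE 0.26). Ccr3, the eotaxin receptor, was rare at 1.04 ± 0.31 and 0.75 ± 0.42 CPM, with 4 of 6 knockouts below all controls (log2 fold change -0.46, SE 0.33, edgeR adjusted p 0.789). Ccr7, which guides dendritic cells to lymph nodes, stood at 3.32 ± 1.54 and 3.86 ± 1.28 CPM, and Ccr9 at 1.19 ± 0.33 and 0.98 ± 0.24 CPM. The fractalkine receptor Cx3cr1 of resident and patrolling monocytic cells stood at 43.0 ± 5.91 and 39.0 ± 3.11 CPM (log2 fold change -0.14, SE 0.09), and Xcr1, a marker of cross-presenting dendritic cells, at 3.54 ± 1.29 and 3.44 ± 0.67 CPM. Of the atypical receptors, Ackr1, which carries chemokines across venules, had a log2 fold change of -0.38 (SE 0.23) and Ackr4, which removes Ccl19 and Ccl21, one of 0.39 (SE 0.34), both at under 4 CPM in each library.

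Libraries of the same group differed in which chemokines stood high. Control replicate 1 was the highest of the 12 libraries for Ccl5, Xcl1, Ccr7, Ccl22, Xcr1 and Ccr9, which include products of T and NK cells and genes of dendritic cells. Control replicate 2 was highest for 8 members, among them Ccl8, Ccl11, Ccl24, Ccr2 and Cxcr2. Control replicate 5 was highest for Ccl2, Ccl3, Ccl4, Ccl6, Ccl9, Cxcl1 and Cxcl2, and control replicate 3 for Cxcl9, Cxcl10, Ccl12, Ccl27a and Ackr1. Knockout replicate 4 was lowest for 8 members, among them Ccl2, Ccl7, Ccl12, Cxcl1, Cxcl5 and Cxcl12. The spread over libraries was narrow for Cx3cr1 and Cxcl16, whose highest library was 1.57 times the lowest, and 10.1 times for Cxcl5. The labels give no batch or date for the libraries.

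**Figure D4:**
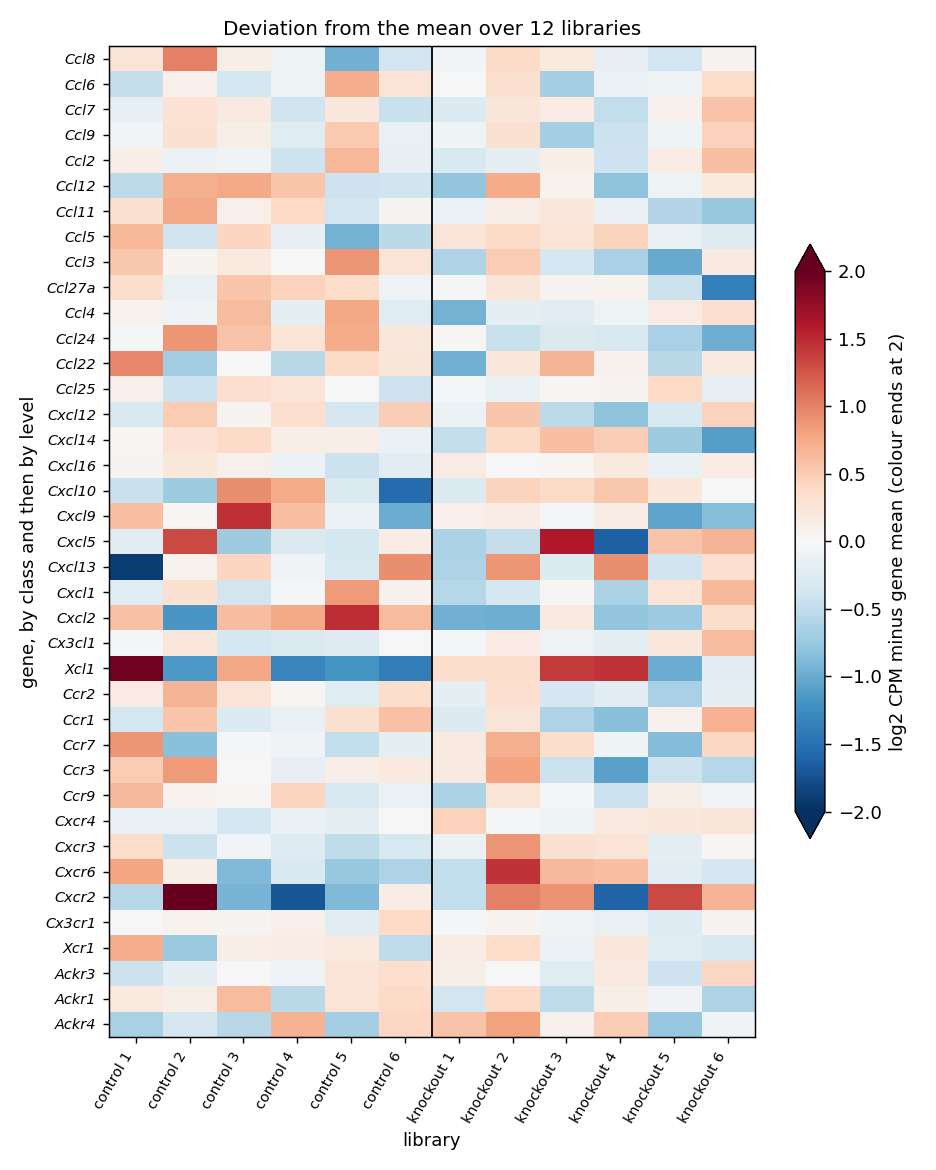
Log2 CPM of 25 tested ligands and 14 tested receptors minus its mean over the 12 libraries, with genes in rows by class and libraries in columns, controls left of the line. Columns differ within each group: control replicate 2 is high for Cxcr2 and Cxcl5, and knockout replicate 4 is low for both.

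Members that lie together in the genome varied together only in part. Runs of 3 or more members with gaps under 500000 bases lay on chromosomes 4, 5, 8, 9 and 11. Of Ccr9, Cxcr6, Xcr1, Ccr1, Ccr3 and Ccr2, which lie in the receptor run on chromosome 9, 5 of 6 had negative log2 fold changes, with Cxcr6 as the exception. Over all tested genes the negative share was 50.5%. In the ligand run on chromosome 11 from 82035571 to 82305690 (GRCm38), the 5 tested genes Ccl2, Ccl7, Ccl11, Ccl12 and Ccl8 had a median log2 fold change of -0.09. The run from 83525778 to 83664683, with Ccl5, Ccl9, Ccl6, Ccl3 and Ccl4, had a median of -0.14. For deviations of log2 CPM from the group means over the 12 libraries, the median Pearson r was 0.28 over 45 pairs within a run and 0.04 over 735 other pairs. The highest r were those of Ccl5 with Xcl1 (0.86), Ccl2 with Cxcl1 (0.83) and Ccr1 with Cx3cl1 (0.82), all pairs on different chromosomes. These values are descriptions, and all pairs share the same libraries, their depth and their mix of cells.

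Over all tested genes, the 5 whose log2 CPM was most like that of Ccl24 were Dolk, Srebf1, Cpt2, Dgat1 and Gstm7, with Pearson r from 0.91 to 0.93 over the 12 libraries. The group difference itself is part of these r. For Cxcr4 they were Sema7a, Gcnt4, Bend6, Gm6634 and 4930480K23Rik, with r from 0.80 to 0.84. Cxcl2, at its low counts, was most like C530005A16Rik, 2510017J16Rik, Alg12, Phex and Prkcz2, with r from 0.84 to 0.87.

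The 24 members that were not tested had mean counts of at most 11 over the libraries, and 5 of these rows were at 0 in all 12. Rows on unplaced scaffolds, 5 in number, repeat the symbols Ccl19, Ccl21a, Ccl21b and Ccl27a. Ccl19 and Ccl21, which guide cells to lymph nodes through Ccr7, cannot be judged from these counts. The chromosome 4 copies of Ccl19, Ccl21a and Ccl21b share 59.1%, 71.6% and 100% of their 50-base words with other genes, and how reads that fit several copies were counted is not stated. The scaffold row of Ccl21a had counts of 33, 0, 17, 0, 6 and 0 in control replicates 1 to 6 and of 1, 9, 3, 48, 2 and 0 in knockout replicates 1 to 6, with no separation of the groups. Ccl27b, with 98.1% of its words shared, had 36 counts in knockout replicate 3 and at most 5 in any other library. Ccr10, Ccl17, Ccl28, Ackr2, Cxcr5, Cxcl3, Ccr4, Ccr6 and Ccl20 were counted at 27 reads or fewer in each library, so that differences in them were not detectable at this depth. For Ccl1, Ccl26, Ccr8, Cxcr1, Cxcl15 and Cxcl17 no library held more than 5.

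Genes that act with chemokines were summarised in 5 lists. Of 11 tested chemokines and chemokine-like genes whose symbols lie outside the rule, which include the platelet CXC chemokines Pf4 and Ppbp, 6 had positive and 5 negative log2 fold changes, and 0 passed. Rarres2, which encodes the chemoattractant chemerin of fat and stroma, stood at 19.2, 25.8 and 38.2 CPM over the controls and 4.53, 11.9 and 15.5 CPM over the knockouts (lowest, median, highest). All 6 knockouts lay below all controls, with a log2 fold change of -1.33 (SE 0.28) and an adjusted p of 0.0511 (edgeR quasi-likelihood). It passed with DESeq2 (adjusted p 0.000387), limma-voom (0.00726), edgeR on genes with at least 50 counts in 6 libraries (0.0482), and limma on log2 FPKM with pseudocounts of 1 and 0.1 (0.0324 and 0.0453). It also passed without knockout replicate 1 or 2 (edgeR adjusted p 0.0389 and 0.0360), and with each other library left out it did not (up to 0.136). The adipocyte and FAP marker sums given above were lower in knockouts beside it, and their part was not tested. Ppbp and the invariant chain Cd74 had log2 fold changes of 0.81 (SE 0.42) and -0.36 (SE 0.19).

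In the other lists too, 0 genes passed. Of 32 tested genes of receptor signalling and desensitisation, 15 had positive and 17 negative log2 fold changes (median -0.01), and Rgs2, which dampens G protein signals, had the smallest p (log2 fold change -0.38, SE 0.12, edgeR adjusted p 0.223). Rgs18 and Rgs19 followed at -0.21 (SE 0.13) and -0.15 (SE 0.11). Of 20 genes of leukocyte adhesion and homing, 7 were positive and 13 negative with a median of -0.03. The junction protein Jam2 had a log2 fold change of 0.23 (SE 0.09), the adhesion molecule Vcam1 one of 0.14 (SE 0.10) and the sialomucin Cd34 one of -0.20. Of 15 genes that cleave or bind chemokines, 4 were positive and 11 negative with a median of -0.08, led by the proteoglycans Sdc1 (0.23, SE 0.09) and Hspg2 (-0.19, SE 0.09) and the protease Mmp14 (-0.23, SE 0.12). Of 18 inducers of chemokine genes, 10 were positive and 8 negative with a median of 0.03. Il1b, an inflammatory cytokine, stood at 3.66, 4.33 and 8.01 CPM over the controls and 3.98, 12.8 and 18.3 CPM over the knockouts, and 4 of 6 knockouts lay above all controls. Its log2 fold change was 1.22 (SE 0.35, edgeR adjusted p 0.152), and the call was made with DESeq2 (adjusted p = 0.0154) or without knockout replicate 2 (edgeR adjusted p 0.0317). Il33, an alarmin of stromal cells, had a log2 fold change of -0.48 (SE 0.17, edgeR adjusted p 0.311), with 4 of 6 knockouts below all controls, and Tslp one of -0.27 (SE 0.23).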

How the data were processed

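The authors deposited raw read counts for each gene, as whole numbers, and FPKM values in a second table. Per the submitters' processing notes, reads went through fastp, HISAT2 2.0.5 and featureCounts on GRCm38 (mm10), and neither strand use nor the handling of reads that fit several genes is stated. Poly-T selected RNA was sequenced on an Illumina platform, per the labels' protocols.

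Counts were fitted with edgeR 4.0.16 in R 4.3.3: the filterByExpr defaults (count 10, total 15), TMM scaling, robust quasi-likelihood F tests of knockout against control over all 16393 tested genes, and Benjamini-Hochberg adjustment with a threshold of 0.05. CPM uses the TMM library sizes and log2 CPM a prior count of 2. FPKM served only for levels between genes and for an alternative. The fit was tested on simulated counts for knockout against control over 16393 genes: 61 of 100 genes changed 1.5-fold and 91 of 100 changed 2-fold were recovered, with 6 false among 158 calls. Only genes with mean counts above 100 were changed, so these shares do not hold for members of lower count.

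All 64 members occur in GENCODE M21 with the same coordinates. Shared sequence is the share of 50-base words of a gene's longest GENCODE M21 transcript found in any transcript of another gene, on either strand. Promoters are RefSeq's, and 45 of the 59 symbols matched. No library was a duplicate: over 30 pairs within groups, chi-square per degree of freedom was 13.0 or more. Alternatives were RLE scaling, DESeq2 1.42.0, limma-voom (limma 3.58.1, with library quality weights throughout), other filters and the replicate number as a block. Further ones were log2 FPKM with pseudocounts of 1 and 0.1, and each library left out. Named genes are Pparg, the 12 members with the smallest p, the 12 with the highest FPKM, the 6 with the largest and the 6 with the most negative fold change, and the 3 genes of each list with the smallest p. Further members and the untested ones are named beside them, and 1 tested receptor enters the counts but is not reported here. The members and lists were chosen with earlier results of these data known.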

Additional observations from a re-analysis of the deposited data

Results flagged for a closer look

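In 4 of the 84 groups of 6 libraries checked for the genes named above, 1 library stood far from the other 5, where chance gives about 1 in 20 groups. Cxcr2 was at 2.03 CPM in control replicate 2 against 0.0559 to 0.457 CPM in the other controls. Cxcr3 was at 7.13 CPM in knockout replicate 2 against 3.38 to 4.76 CPM in the other knockouts. Cd34 was at 58.2 CPM in knockout replicate 3 against 92.4 to 104 CPM. Sdc1 was at 60.8 CPM in knockout replicate 6 against 44.3 to 49.4 CPM.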

How the results depend on the processing

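Of 830 alternative values for the 42 named genes, 787 kept their direction and side of the threshold, and 27 of the 40 tested members kept their sign under every alternative run. The count of members called, 0 higher and 0 lower by edgeR, became 1 higher and 1 lower with DESeq2, 0 and 1 with limma-voom, without a count filter, and with limma on log2 FPKM at both pseudocounts, and 0 to 0 higher and 0 to 1 lower with each library left out. For the 5 lists of genes that act with chemokines, 0 and 0 became 1 higher and 1 lower with DESeq2, 0 and 2 with limma-voom, 0 and 1 with at least 50 counts in 6 libraries or on log2 FPKM at both pseudocounts, and 0 to 1 in each direction with each library left out. Over all genes, 8 higher and 123 lower became 67 and 332 with DESeq2, 62 and 331 with limma-voom, 13 and 163 on log2(FPKM + 1), and 1 to 24 higher and 5 to 190 lower with each library left out, lowest without knockout replicate 3 and highest without knockout replicate 2. With the replicate number as a block, 15 genes were higher and 221 lower, with 0 and 1 of the members (Ccr2, adjusted p = 0.0131) and 0 and 1 of the list genes called. The labels do not say that a number pairs samples, and deviations of same-numbered samples correlated at -0.13 to 0.46, with 2 of 6 control samples closest to their own number.

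Signs turned under at least 1 alternative in 13 tested members, of which Ackr3, Ccl25, Cxcl5, Ccr7, Xcr1, Ccl22, Cxcl1 and Cxcl13 lie outside the named genes and the other 5 are given here. The log2 fold change of Ccl8 was 0.0092 with the replicate block, 0.0187 on log2(FPKM + 1) and 0.0190 on log2(FPKM + 0.1), and -0.23 to 0.17 with each library left out. That of Ccl2 was 0.00011 with RLE scaling and 0.00097 without a count filter, and -0.16 to 0.16 with each library left out. Leaving out each library gave -0.17 to 0.10 for Ccl6, -0.0036 to 0.22 for Ccl7 and -0.30 to 0.0029 for Cxcl14. The cause was not tested. Depth limits the members of low count, such as Cxcl2 and Cxcr2, where a library held as few as 3 and 1 reads.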
